A study of Mus musculus with 2 samples.

Results

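The genes studied here encode 10 regulators that act upstream of Egr1 in activity-dependent transcription, and the EGR1 peaks at their own loci were described. They are the CREB family factors Creb1 and Crem, the coactivators Crebbp, Ep300 and Crtc1, the serum response factor gene Srf with its ETS partners Elk1 and Elk4, and the MEF2 factors Mef2a and Mef2d. A peak was taken as a peak of a gene when its centre lay in the gene body or within 10 kb of a transcription start site (TSS) of GENCODE release M21. By this rule 18 of the 12014 EGR1 peaks belonged to 8 of the 10 genes, and Crem and Mef2a had none. The rule uses positions only, and neither the IDR nor the sequence of a peak.

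The peaks came from ChIP-seq with an anti-EGR1 antibody on micro-dissected frontal cortices of male F1 hybrid mice (strain label C57BL6N/129SvEv) at the age of 6 weeks. Tissue of 4 to 5 mice was pooled for each of 2 ChIP experiments, and the deposited list merges both. Each peak carries an irreproducible discovery rate (IDR), and a smaller value marks a peak that ranked more consistently high in both experiments. Peaks were kept up to an IDR of 0.02. The list holds no read counts and no values of a single experiment, so the depth of a peak and the spread between experiments are unknown, no test over samples was possible, and the values below are descriptions set beside the same measure over all genes or peaks. The tissue was bulk cortex with no expression values in the file, so the cell types that carry a peak are unknown and the tissue label could not be checked against marker genes. Positions are given on mm10 (GRCm38.p6), counted from 1.

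CREB1 binds the cAMP response element (CRE) and, once phosphorylated, recruits the histone acetyltransferases CREBBP and EP300. CRTC1 is a calcium- and cAMP-responsive coactivator that joins CREB1 in the nucleus, and CREM is a CREB family member with activating and repressing isoforms. SRF binds the CArG box, and ELK1 and ELK4 bind beside it at an ETS motif to form a ternary complex that responds to MAP kinase signalling. MEF2 factors bind an AT-rich box and are controlled by calcium in neurons. Egr1 is a textbook target of the SRF and ELK complex and of CREB, and its product is a zinc finger factor that binds a GC-rich element.

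The exact EGR1 element, searched as GCGTGGGCG or GCGGGGGCG on both strands, occurred in 7 of the 18 peaks, and these were 1 peak each of 7 genes. The 30-base windows around the 7 matches are shown because they give the element in every gene that had one. Each is written 5′ to 3′ on the strand that carries the element, with the 9 bases of the element in capitals.
Creb1, chr1:64532726-64532755, plus strand: cgccagtagcGCGGGGGCGgggcctgtcga
Crebbp, chr16:4212999-4213028, minus strand: ggaaaagtgaaGCGGGGGCGcggtctagtg
Ep300, chr15:81586179-81586208, minus strand: gccacaaggagGCGGGGGCGaaaaaggggg
Crtc1, chr8:70439364-70439393, minus strand: gaggaagagacGCGGGGGCGgggctgcggc
Srf, chr17:46556245-46556274, minus strand: ggaccaatgggGCGGGGGCGctggggctcg
Elk1, chrX:20946140-20946169, minus strand: agctgggggggGCGGGGGCGggactctgat
Elk4, chr1:132007941-132007970, minus strand: accccgacgggGCGTGGGCGtgctgctcac
Elk4 alone carried GCGTGGGCG, and the other 6 carried GCGGGGGCG. The second form also contains the run of G bases of a GC box, so a match does not tell which factor reads it.

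The peaks at Srf and the upstream peak at Ep300 are shown next because they hold the CArG box, the sequence that SRF itself binds. Capitals mark the CArG box, the EGR1 element (on the opposite strand) and the ETS motif CCGGAAG (on the opposite strand), all written on the plus strand. Srf lies on the minus strand, so its TSS is to the left of the first sequence.
Srf promoter peak, first 300 bases, chr17:46556228-46556527: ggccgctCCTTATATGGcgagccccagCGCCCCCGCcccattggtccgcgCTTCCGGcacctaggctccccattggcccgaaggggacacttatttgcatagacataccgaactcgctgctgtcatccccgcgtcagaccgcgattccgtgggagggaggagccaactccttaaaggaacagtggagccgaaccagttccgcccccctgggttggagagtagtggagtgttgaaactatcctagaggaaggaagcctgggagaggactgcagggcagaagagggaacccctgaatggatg
Srf intron 2 peak, chr17:46553217-46553409: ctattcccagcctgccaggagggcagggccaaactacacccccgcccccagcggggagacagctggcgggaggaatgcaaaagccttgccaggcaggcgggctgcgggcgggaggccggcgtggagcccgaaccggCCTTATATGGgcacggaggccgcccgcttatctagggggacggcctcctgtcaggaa
Ep300 upstream peak, window, chr15:81585099-81585128: caaaacctccCCTTTAAAGGgagccaccga
Both Srf peaks held the same 10 letters of the CArG box, and the box of Ep300 differed from them.

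A peak by the rule was present at 8 of the 10 genes (80%), beside 39.4% of all 22028 protein-coding genes. The genes were long, with a median length of 62.0 kb beside 17.3 kb over all protein-coding genes. A longer gene body gives the rule more room, and the part of gene length was not tested. With the gene body left out of the rule, 8 genes still had a peak, with 17 peaks in all. The share over all genes was not recomputed that way, and it was not matched for promoter CpG content or for expression in cortex. Among protein-coding genes of over 100 kb, 61.6% had a peak, and of the 2 members of that length Crebbp (133 kb) had peaks and Mef2a (142 kb) had none. A peak centre within 500 bp of a TSS was found at 6 genes, namely Creb1, Crebbp, Ep300, Crtc1, Srf and Elk4, beside 25.7% of all protein-coding genes. The members also had more annotated TSSs, with a median of 7 distinct positions a gene beside 3 over protein-coding genes, and the part of TSS number in this count was not tested. At least 2 peaks were found at 6 genes, beside 13.7%, and at least 2 peaks within 500 bp of a TSS at 3 genes (Crebbp, Ep300 and Elk4), beside 3.12%. The last of these counts was chosen after its values were seen. It includes peaks with an IDR over 0.001 at Crebbp (0.00417) and Elk4 (0.00102), and with only peaks of 0.001 or less Ep300 alone kept a pair. The second peak of that pair is near the TSS of a retained-intron transcript, and 779 bp from the nearest TSS of a coding one.

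**Figure D1:**
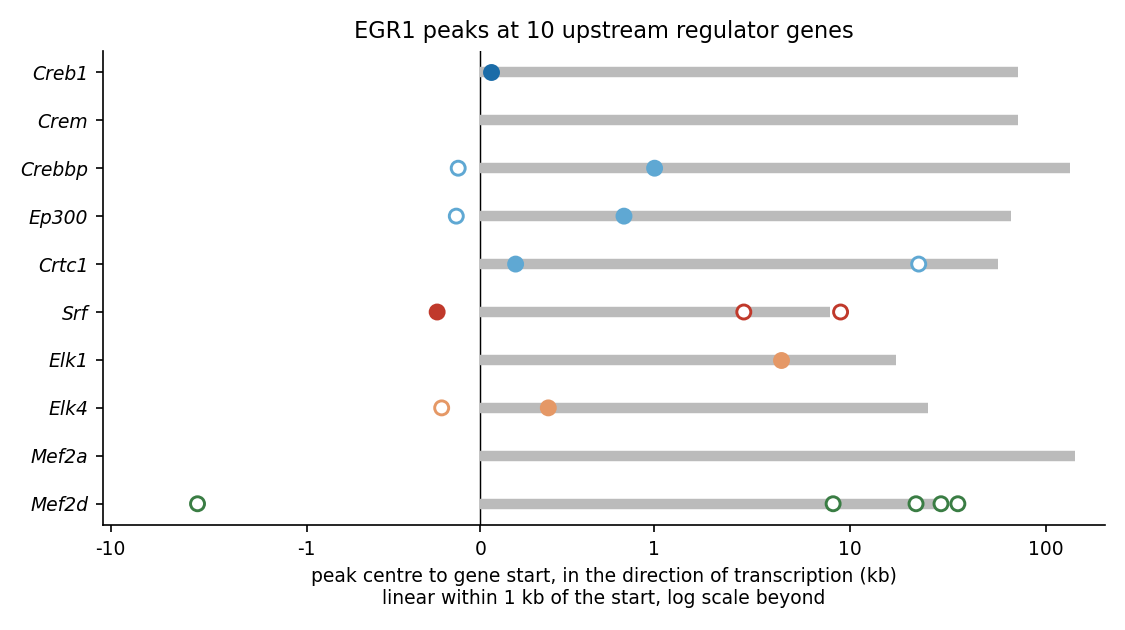
Position of the centre of each EGR1 peak (circles) relative to the annotated start of its gene, in kb along the direction of transcription, on an axis that is linear within 1 kb of the start and logarithmic beyond it. Grey bars are gene bodies, filled circles are peaks that hold the exact EGR1 element, and open circles are peaks that do not. The peaks of Creb1, Crebbp, Ep300 and Elk4 crowd around the start, while those of Mef2d spread from 3605 bp before the start to 35522 bp after it.

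Of the CREB family, Creb1 had 1 peak and Crem had none. The Creb1 peak lies at chr1:64532576-64532839 with an IDR of 3.18e-07, and 14.7% of all peaks had a lower IDR. Its centre is 62 bp downstream of a Creb1 TSS, in the 5′UTR, and 33 bp from the EGR1 element. The peak covers 264 of the 300 bases of the RefSeq promoter of Creb1 (250 bases before to 50 after the RefSeq start), in which the element lies 64 bp upstream of the start. Creb1 therefore had a single peak, at its start, with the element in it. Crem, at 71.7 kb as long as Creb1 (71.9 kb), had its nearest peak 681601 bp from any of its TSSs. No promoter of Crem was in the RefSeq table.

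The coactivators Crebbp and Ep300, paralogous acetyltransferases, each had a pair of peaks around the start. The first Crebbp peak, chr16:4213995-4214256, is centred 128 bp upstream of the Crebbp TSS with an IDR of 3.94e-05. The second, chr16:4212865-4213125, lies in intron 1, 1002 bp downstream of the gene start and 418 bp from another Crebbp TSS, with an IDR of 0.00417. The peak with the higher IDR, the intronic one, is the one with the EGR1 element, 18 bp from its centre.

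The first Ep300 peak, chr15:81585088-81585337, is centred 139 bp upstream of an Ep300 TSS with an IDR of 1.26e-05, and 184 bp from the TSS of the neighbouring gene 1110025M09Rik. The second, chr15:81586045-81586308, lies in the 5′UTR in exon 1, 825 bp downstream of the gene start, with an IDR of 1.48e-06. It is 44 bp from the TSS of a retained-intron transcript of Ep300 and 779 bp from the nearest TSS of a coding one. The microRNA gene Gm23880 has its start 43 bp from the centre of this peak, against 44 bp for Ep300. The centres of the paired peaks were 1130 bp apart at Crebbp and 964 bp apart at Ep300. In both genes the upstream peak had no exact EGR1 element and the downstream peak had 1, which at Ep300 lies 17 bp from the peak centre.

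Crtc1 had 2 peaks, both in intron 1 of its longest coding transcript, which has 14 exons. The first, chr8:70439262-70439492, is centred 198 bp downstream of a Crtc1 TSS with an IDR of 3.97e-07, and its EGR1 element lies 1 bp from the centre, the nearest of the 7. The second, chr8:70417046-70417295, is 22409 bp into the gene and 14115 bp from the nearest TSS, with an IDR of 3.49e-06. It had no element even when 1 mismatch was allowed.

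Srf, a short gene of 7.85 kb, had 3 peaks, a number that 4.80% of protein-coding genes reach or exceed. The promoter peak, chr17:46556228-46556621, is centred 249 bp upstream of the TSS with an IDR of 0.000705 and is the widest of the 18 at 394 bp. The intron 2 peak, chr17:46553217-46553409, is centred 2862 bp downstream of the start and had the lowest IDR of the 18, 2.42e-07. The third, chr17:46547107-46547370, lies downstream of the gene with an IDR of 0.000825. The ubiquitin ligase gene Cul9 has a TSS 850 bp from the centre of the third, and the start of Mir6976 is 576 bp from that of the intron 2 peak, each nearer than any TSS of Srf. Both of these peaks also count for Cul9 by the rule, so only the promoter peak is nearest to Srf itself.

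The promoter peak of Srf held the EGR1 element, a CArG box and an ETS motif side by side, 97, 77 and 119 bp upstream of the RefSeq start of Srf. Over the 11938 peaks on assembled chromosomes, 12 held both an EGR1 element and a CArG box, and 1, this one, held all 3. The comparison of these 3 motifs was chosen after the motifs were seen in this peak. The 3 sites sit at one edge of the peak, and the EGR1 element is 165 bp from the peak centre, the farthest of the 7. A second CArG box, 57 bp upstream of the RefSeq start, lies outside the peak by 3 bases.

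The ETS partners of SRF differed in where their peaks lay. Elk1 had a single peak, chrX:20946025-20946274, in intron 1, 4459 bp downstream of its TSS, with an IDR of 0.000317 and the EGR1 element 5 bp from the centre. It also counts for the neighbouring gene Uxt by the rule. Elk4 had a pair at its start like those of Crebbp and Ep300. The first, chr1:132007253-132007516, is centred 223 bp upstream of an Elk4 TSS with an IDR of 0.00102, and the second, chr1:132007873-132008122, lies in intron 1, 102 bp from another Elk4 TSS, with an IDR of 0.000354. Their centres were 613 bp apart, and again the downstream peak had the element. An ETS motif, the kind of site that ELK4 binds, occurs 65 bp upstream of a RefSeq start of Elk4, in the stretch of 356 bp between both peaks and in neither of them.

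Mef2d had the most peaks of the 10 genes, 5, which 0.799% of protein-coding genes reach, and none lay within 500 bp of a TSS of Mef2d or held the exact EGR1 element. The lowest IDR, 3.63e-07, was at chr3:88150428-88150689 in intron 1, 8186 bp downstream of the gene start. The next, 2.10e-06, was at chr3:88138636-88138899, 3605 bp upstream of the gene. By rank, 15.8% and 24.9% of all peaks had a lower IDR than these 2 distal peaks.

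The other 3 Mef2d peaks were among those nearest to the IDR limit. They lie at chr3:88163959-88164208 in intron 9 (IDR 0.0189), at chr3:88171371-88171633 in the 3′UTR (0.0119) and at chr3:88177763-88178026 downstream of the gene (0.0196). At the last of these 99.7% of all peaks had a lower IDR. The antisense gene 1700113A16Rik has its start 109 bp from the centre of that peak, which is 9642 bp from the nearest Mef2d TSS and so just inside the 10 kb of the rule. Without the 3 peaks of an IDR over 0.01, Mef2d had 2.

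Mef2a had no peak by the rule although it is longer than 92.8% of protein-coding genes. Its nearest peak, chr7:67222499-67222675 with an IDR of 4.07e-07, is 43575 bp from the nearest Mef2a TSS, lies 8487 bp beyond the 3′ end of the gene and is 8 bp from a TSS of Lysmd4. The RefSeq promoter of Mef2a held no exact EGR1 element and 1 MEF2 box, 3 bp downstream of the start, and 3.19% of the 32851 RefSeq promoters hold such a box. Its GC content was 62.3% and its CpG ratio 0.929, beside medians of 52.7% and 0.384 over all promoters, so it was not poor in CpG.

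Just outside the 10 kb limit, the peak nearest to a member was 10737 bp from a Crebbp TSS, at chr16:4077785-4077931 beyond the 3′ end of the gene. Its IDR, 4.83e-08, was lower than that of any of the 18 peaks, and it is 31 bp from a TSS of Trap1. For the other 9 genes the nearest peak outside the rule was 14442 bp (Crtc1) to 681601 bp (Crem) away.

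The IDR of the 18 peaks ran from 2.42e-07 to 0.0196 with a median of 0.000178 (order-statistic interval at the 95% level, 1.48e-06 to 0.00102), beside a median of 0.000321 over all peaks, which lies inside that interval. An IDR of 0.001 or less was given to 13 of the 18 peaks, and to 59.6% of all peaks. All 8 genes with a peak had at least 1 of these. By their lowest IDR the genes ranked Srf (2.42e-07), Creb1 (3.18e-07), Mef2d (3.63e-07), Crtc1 (3.97e-07), Ep300 (1.48e-06), Crebbp (3.94e-05), Elk1 (0.000317) and Elk4 (0.000354). The IDR of a merged peak has no error of its own, so neighbours in this order cannot be separated. The 9 peaks within 500 bp of a TSS of their gene had a median of 3.94e-05 and the 9 others one of 0.000317, and both sets spanned low and high values. Over all peaks, 51.3% had their centre within 500 bp of a TSS of some gene.

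**Figure D2:**
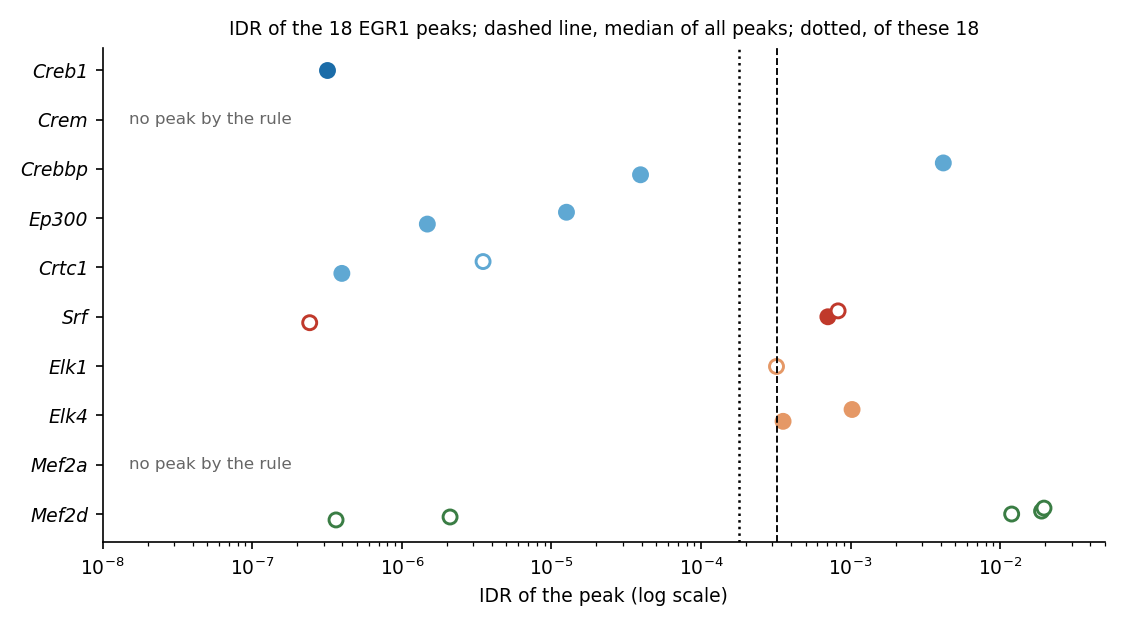
IDR (log scale) of each of the 18 peaks by gene; filled circles are peaks within 500 bp of a TSS of the gene and open circles are farther away. The dashed line is the median of all peaks (0.000321) and the dotted line that of the 18 (0.000178), and Crebbp, Srf and Mef2d have peaks on both sides of them while Creb1, Ep300 and Crtc1 have peaks only to the left.

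The exact EGR1 element was in 7 of 18 peaks (38.9%, 95% Wilson interval 20.3 to 61.4, counting error only) beside 16.6% of the 11938 peaks on assembled chromosomes. The share differed by position in the whole list, where the element was in 23.1% of all peaks within 500 bp of a TSS and in 9.72% of those farther away. Of the members' peaks it was in 6 of the 9 near a TSS of their gene and in 1 of the 9 others, that of Elk1. The splits differ, because all peaks were split by the TSSs of any gene and the members' peaks by those of their own gene. When 1 mismatch was allowed, 13 of the 18 peaks held a match beside 69.8% of all peaks, so the looser search set them apart far less. Of the 7 elements, 6 lay within 50 bp of the peak centre and the median distance was 18 bp.

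By the median, the members' peaks with the element did not have the lower IDR. Their median was 0.000317, beside 3.94e-05 for the 11 peaks without it. An IDR of 0.001 or less was given to 6 of the 7 peaks with the element and to 13 of all 18. The 3 peaks with an IDR over 0.01 had no exact element. The median and these counts thus differ in direction, and neither was tested. Over all peaks the medians stood in the other order, with 2.84e-06 for peaks with the element and 0.000554 for peaks without it. The intron 2 peak of Srf and the intron 1 peak of Mef2d, both of low IDR, had no exact element.

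The sites that the members' own products bind were searched in the same way, on both strands. The full CRE, TGACGTCA, was in 0 of 18 peaks (upper Wilson limit 17.6%) beside 1.3% of all peaks, and the MEF2 box in 0 beside 1.75%. The CRE core TGACG, which every full CRE contains, was in 6 of 18 peaks, 1 each of Crebbp, Ep300, Crtc1, Srf, Elk4 and Mef2d, beside 19.6% of all peaks. Crebbp and Elk4 had 2 copies each in their upstream peak. An absent match says only that these letters are not in the window.

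The CArG box was in 3 of 18 peaks (16.7%, Wilson interval 5.84 to 39.2), those of Srf in the promoter and intron 2 and the upstream one of Ep300, beside 0.938% of all peaks. With 2 of the 3 in the Srf gene, the count stands for 2 loci and not 3. The ETS motif CCGGAAG was in 2 peaks, the Srf promoter peak and the last Mef2d peak, beside 7.09% of all peaks. The AP-1 site TGANTCA, bound by FOS and JUN, was in 1, the downstream peak of Srf, beside 6.48%.

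**Figure D3:**
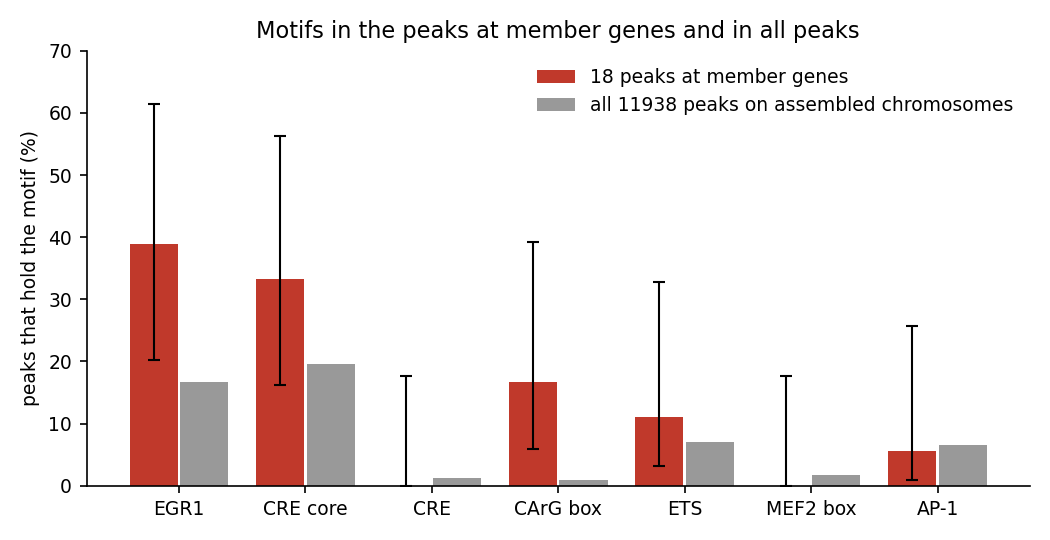
Share of peaks (%) that hold each motif on either strand, for the 18 peaks at the members (red, with 95% Wilson intervals that cover counting error only) and for all 11938 peaks on assembled chromosomes (grey). The share was 38.9% at the members and 16.6% over all peaks for the EGR1 element, and 16.7% and 0.938% for the CArG box. The intervals take the 18 peaks as independent although they lie in 8 genes, so they are not a test. The shares of all peaks are not matched for distance to a TSS, and within 500 bp of one 23.1% of all peaks held the EGR1 element.

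**Figure D4:**
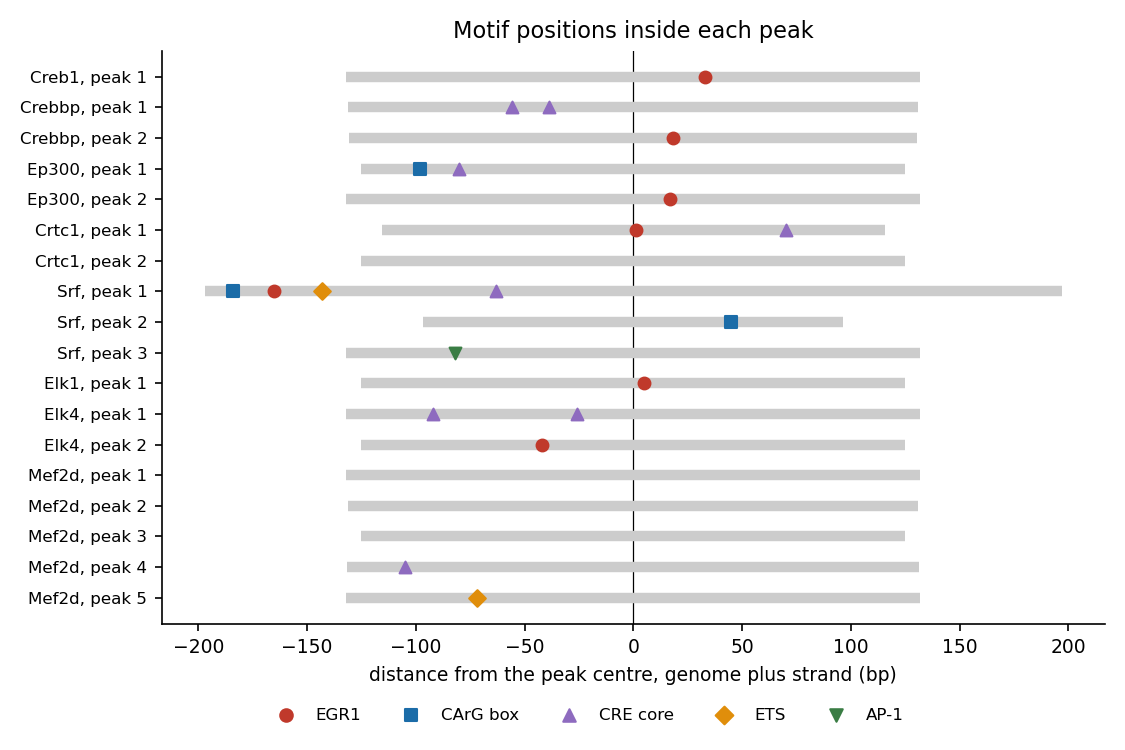
Motif matches in each of the 18 peaks by distance from the peak centre (bp, plus strand of the genome), with the extent of the peak as a grey bar. EGR1 elements (red circles) lie within 50 bp of the centre in every gene that has one but Srf, whose promoter peak carries the CArG box, the EGR1 element and the ETS motif together near one edge.

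The base composition of the peaks split by place. GC content ran from 48.4% (Elk1) to 75.2% (the intron 1 peak of Elk4), with a median of 62.0% beside 60.4% over all peaks. The CpG ratio, the number of CpG over that expected from the C and G content, had a median of 0.685 beside 0.600 over all peaks. It was 0.587 to 1.04 in the 9 peaks within 500 bp of a TSS of their gene (median 0.788), like the median of 0.792 for all peaks at that distance from a TSS. In the other 9 it was 0.112 to 1.03 (median 0.254), beside 0.326 for all other peaks. The highest of these 9 was the last Mef2d peak, at the start of 1700113A16Rik, and the next was the intron 2 peak of Srf (0.605). All peaks were split by the TSSs of any gene, so that Mef2d peak counts as near a TSS in their split. The Elk1 peak thus held an exact EGR1 element in sequence with 4 CpGs and a CpG ratio of 0.276.

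**Figure D5:**
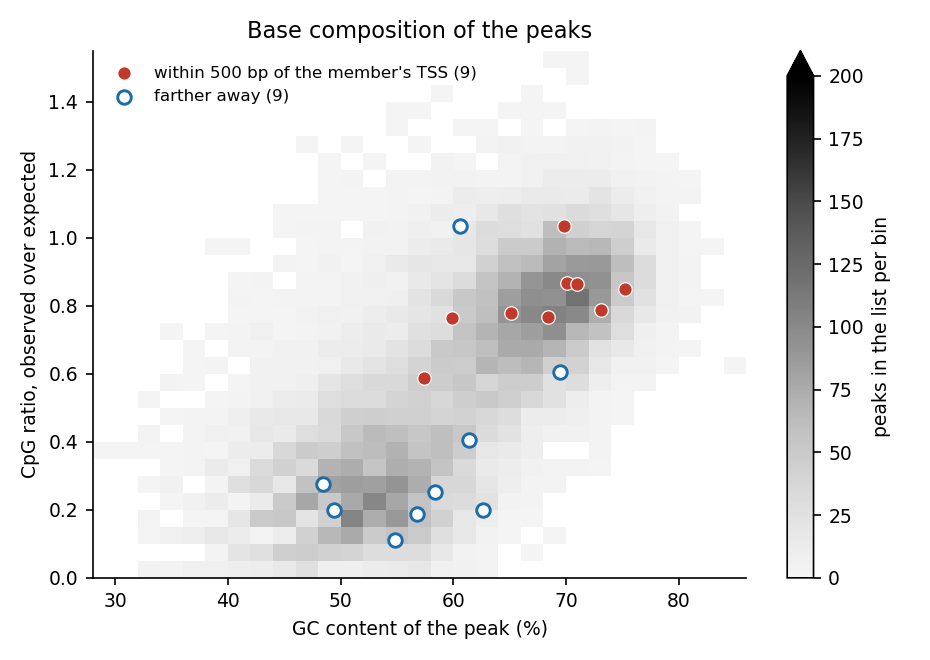
CpG ratio (observed over expected) against GC content (%) of the members' peaks within 500 bp of a TSS of their gene (filled) and farther away (open), over all peaks of the list counted in bins (grey). The 9 peaks near a TSS lie at a CpG ratio of 0.587 or more, and 7 of the other 9 lie below 0.5.

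The RefSeq table held 11 promoters for 9 of the 10 genes. The exact EGR1 element was in 4 of them, 1 each for Creb1, Elk4, Ep300 and Srf, beside 3.47% of all promoters in the table, and in each case the same copy lay in a peak. At Srf the promoter held 2 CArG boxes, and 1.63% of promoters hold any. No peak overlapped the promoter windows of Mef2d, Mef2a, Crtc1, Crebbp and Elk1, although Crtc1 and Crebbp had peaks within 500 bp of a GENCODE TSS.

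Other genes of the same pathways were described from fixed lists. Of 9 further family members and cofactors, 7 had a peak by the rule and 5 had one within 500 bp of a TSS, beside 39.4% and 25.7% of all protein-coding genes. All 4 genes of this list that are over 100 kb long had a peak, beside 61.6% of protein-coding genes of that length. The list had 14 peaks in all, with a median IDR of 6.02e-05. Atf1, the other close relative of CREB1, and Myocd, the muscle cofactor of SRF, had none. The lowest IDR of this list, 9.66e-08, was at Mrtfa, an actin-regulated cofactor of SRF, 48 bp from a TSS.

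A further list held 16 genes for kinases and for the calcineurin phosphatase in the pathways that signal to the members. Of these, 12 had a peak and 9 had one within 500 bp of a TSS, beside the same 39.4% and 25.7%. Of the 7 that are over 100 kb long, 5 had a peak, beside 61.6% of protein-coding genes of that length. The list had 21 peaks with a median IDR of 0.000179. Camk4, Rps6ka1, Prkacb and Sik2 had none. The lowest IDR, 1.56e-08, was 38 bp from a TSS of Prkaca, which encodes a catalytic subunit of the cAMP-dependent kinase, while the nearest peak to Prkacb, which encodes another, was 245674 bp away. Members and relatives differed within some families in whether they had a peak. Creb1 had a peak and Crem and Atf1 had none, and Prkaca had a peak and Prkacb had none. Mef2b, Mef2c and Mef2d had peaks and Mef2a had none. All of Crtc1, Crtc2 and Crtc3, of Elk1, Elk3 and Elk4, of Crebbp and Ep300, and of Mrtfa and Mrtfb had peaks. These families were picked after their values were seen.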

How the data were processed

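EGR1 ChIP-seq was measured in frontal cortices of 6-week-old male mice. The authors trimmed 100-bp paired-end reads, mapped them to mm10 with Bowtie (the submitters' processing notes name cutadapt 11.2, Bowtie2 2.2.9 and bedtools 2.26.0), called peaks in each replicate with SPP and deposited the merged peaks that passed an IDR of 2%, with their positions and IDR, which is read like a q-value. An input DNA sample had no file and was not used here.

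How positions are counted is not stated; they were taken as BED positions and compared with GRCm38.p6 and GENCODE M21. Peaks on scaffolds entered counts but not sequence results. A CpG ratio is the CpG count times length over the product of C and G counts. The genes and lists were chosen with earlier results of these data known. All 10 genes with their peaks, genes with a TSS nearer to a peak, and the list genes with the lowest IDR or no peak were named. Uxt, Lysmd4, Trap1, 1110025M09Rik, Crtc2, Crtc3, Elk3, Mef2b, Mef2c and Mrtfb were named after their values were seen. Python 3.11.15, numpy 2.4.6, pandas 2.3.3, scipy 1.17.1 and matplotlib 3.10.9 were used, tested on simulated data.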

Additional observations from a re-analysis of the deposited data

How the results depend on the processing

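The genes with a peak, their peaks, the genes with a start-site peak, the peaks with the EGR1 element and the median IDR were recomputed. Each was given those of 12 other settings that applied to it, 38 values in all. Other counts, such as the other motifs and the gene lists, were not recomputed. The pairs of start-site peaks are not among the 38 values. They were recounted only with peaks of an IDR of 0.001 or less, where Ep300 alone kept a pair. The counts among the 38 values stayed within 1.5 times the reported ones except for the EGR1 element, below. The median IDR of the members' peaks moved from 0.000178 to 3.49e-06 with only peaks of an IDR of 0.001 or less and to 1.26e-05 at 0.01 or less, both of which remove high values by construction. It was 3.94e-05 with 2 kb around a TSS or only basic transcripts, and 0.000317 without the gene body. These values lie within its wide interval of 1.48e-06 to 0.00102, and the median is not a firm value with 18 peaks. A peak was present at 8 genes, and at a start site of 6, under every setting tried for those counts, and the number of peaks ranged from 13 (only peaks with an IDR of 0.001 or less) to 18. The number of peaks with the EGR1 element rose from 7 to 13 when 1 mismatch was allowed and fell to 1 when only GCGTGGGCG was searched, which follows from the looser and the narrower search. No replicate could be left out because the deposited list is merged, and no paired analysis was possible because the list gives no values of single experiments and the input has no file. Depth is unknown, so a missing peak at Crem or Mef2a is a peak not listed, not binding shown to be absent.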

Other observations

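The FOS and JUN genes, which encode the AP-1 factors, were counted by the same rule for comparison. Of 7 genes, 6 had a peak, and 3 had one within 500 bp of a TSS, beside 39.4% and 25.7% of all protein-coding genes. Their 13 peaks had a median IDR of 3.26e-07 and ran from 5.33e-09 to 0.0119, and those of the upstream regulators had a median of 0.000178. The difference was not tested. Of the 13 peaks, 5 were at Junb and 3 at Fosl2, so the median leans on few loci. The lowest IDR was at Junb, 7520 bp from the nearest TSS of Junb, and Fos, a widely used marker of neuronal activity, had none, with its nearest peak 11308 bp from a TSS and so just outside the rule.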
